A study of Mus musculus with 6 samples.

Results

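The DNA-binding HMG proteins and DEK were followed in E0771 cells, a mouse breast adenocarcinoma line of C57BL/6 origin, after downregulation of lamin A/C. Their genes were chosen by symbol: Dek, Hmgb1, Hmgb2, Hmgb3, Hmga1, Hmga2, Hmgn1, Hmgn2, Hmgn3 and Hmgn5 were looked up in the deposited table of 10520 genes, and 9 of the 10 symbols matched exactly. Hmga1 was not analysed here. The study asked what reduced lamin A/C does to the nucleus, migration and growth of metastatic cells. The group was put together with the knockdown response of these libraries already known, so the shLmna and shControl values of its genes are given below as a description without a test.

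Both groups were puromycin-selected pools of lentivirally transduced cells rather than clones. The 3 shControl libraries came from cells with the empty pLKO.5-puro vector. The 3 shLmna libraries came from cells with an shRNA construct against lamin A/C. Titles of the shLmna libraries read shRNA4, and which of the study's constructs this is was not found. The libraries came from MARS-seq, a method that sequences the 3′ end of poly(A) RNA. Each captured molecule gets its own random barcode, the unique molecular identifier (UMI), and its amplified copies are counted once. The labels do not say whether replicates were separate cultures, and p-values therefore measure the spread between these libraries, which may be technical. Total UMIs per library ranged from 1846208 to 3242051. Values called normalized are UMI counts scaled to a common library size by TMM (trimmed mean of M-values) factors, so that 1 UMI was worth between 0.777 and 1.32 normalized counts. Position on the plate (13 to 15 for shControl, 16 to 18 for shLmna) and group cannot be told apart.

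Lmna, the targeted gene, held 2066, 2794 and 1764 UMIs in the shControl libraries and 1035, 1023 and 713 in the shLmna libraries. Normalized, that was 2169 ± 156 against 946 ± 15.7 (mean ± SD, n = 3 each), a log2 fold change of -1.20 ± 0.13 (SE), and it fell in the quasi-likelihood test of edgeR across all genes (adjusted p = 3.55e-05). The groups did not overlap. Krt8, a keratin of simple epithelia, held between 516 and 814 UMIs in the 6 libraries. The 4 epithelial markers matched of 6 (Krt8, Krt18, Krt7, Epcam) summed to between 661 and 802 normalized counts in shControl and between 715 and 784 in shLmna, most of it from Krt8. Epcam, an epithelial adhesion protein, had a mean of 33.9 ± 1.56 in shControl and 17.6 ± 10.1 in shLmna (SD, n = 3 each), and its groups did not overlap. Its log2 fold change was -0.90 ± 0.34 (SE; edgeR adjusted p = 0.0909), and without the libraries set apart in the next paragraph it fell by 1.51 on the log2 scale (edgeR adjusted p = 0.00834). The matched immune marker, Cd68, lay between 20.2 and 33.1 in shControl and between 13.2 and 21.4 in shLmna. The endothelial marker Pecam1 lay between 1.55 and 7.91 in shControl and between 1.86 and 5.28 in shLmna. The fibroblast markers Pdgfra and Col1a1 together gave 14.8 to 19.8 in shControl and 17.3 to 27.7 in shLmna.

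Libraries of both groups stood apart in genes of pigment cells. The 5 melanocytic genes matched of 6 (Mlana, Pmel, Tyrp1, Dct and Mitf) summed to 15, 7 and 1385 UMIs in shControl replicates 1, 2 and 3, and to 2, 1607 and 5 in shLmna replicates 1, 2 and 3. Dct was at 0 in shControl replicates 1 and 2 and in shLmna replicate 1, while Mlana and Tyrp1 were at 0 in shLmna replicates 1 and 3. The study also sequenced B16F10 melanoma cells, which were not analysed here. The part that RNA from melanocytic cells played in the results was not tested, and values are therefore also given without shControl replicate 3 and shLmna replicate 2, a choice made after the data were seen.

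The proteins described here bend, loop or loosen chromatin without having an enzymatic activity of their own. HMGB proteins carry tandem HMG boxes, which insert into the minor groove and bend DNA, and HMGB1 is also released from dying cells and acts outside as an alarm signal. HMGA proteins bind AT-rich DNA through AT-hooks, and Hmga2 is an embryonic gene that is silenced by let-7 microRNAs in most adult tissues and returns in many carcinomas. HMGN proteins bind nucleosomes and counteract compaction by linker histone H1. DEK binds supercoiled and cruciform DNA, acts as a histone chaperone, helps to keep heterochromatin intact and is an oncogene in several tumors. Lamin A/C, the other partner in the question, lines the inner nuclear membrane and anchors heterochromatin at the nuclear edge.

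Dek, on the minus strand of chromosome 13 (chr13:47084775-47106201, GRCm38), was the member that differed most between the groups. It held 3, 3 and 13 UMIs in the shControl libraries and 121, 174 and 136 UMIs in the shLmna libraries. Every lamin A/C knockdown library was thus well above every control library, and the highest control value lay in the shControl library with melanocytic genes. In normalized counts the mean went from 7.46 ± 8.38 in shControl to 150.3 ± 34.3 in shLmna (SD, n = 3 each), a ratio of 20.1. The log2 fold change was 4.53 ± 0.42 (SE). Summed over libraries, 19 UMIs stood against 431, a ratio of rates of 23.8, and 13 of the 19 came from shControl replicate 3. Without both libraries that held melanocytic genes the sums were 6 and 257 UMIs, the ratio of rates was 54.1 and the log2 fold change was 5.74 ± 0.41 (SE). In bulk libraries, more cells with Dek RNA in shLmna and more Dek RNA per cell cannot be told apart. In the annotation 2 of the 3 ends of coding Dek transcripts lie outside the window taken here as its counted end. A change in which end is used was not tested.

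Promoter sequences are shown for Dek, the member with the largest difference, and beside it for Hmgb2 and Hmgb3, HMGB genes with the CCAAT box in several copies. Each is a window of 300 bases, most of it upstream of a RefSeq transcription start (GRCm38.p6), read 5′ to 3′ with the CCAAT box, read on either strand as CCAAT or ATTGG, in capitals. The CCAAT box is a promoter element bound by the trimeric factor NF-Y. The windows are chr13:47106172-47106471 on the minus strand for Dek, chr8:57511593-57511892 on the plus strand for Hmgb2 and chrX:71555667-71555966 on the plus strand for Hmgb3.
Dek: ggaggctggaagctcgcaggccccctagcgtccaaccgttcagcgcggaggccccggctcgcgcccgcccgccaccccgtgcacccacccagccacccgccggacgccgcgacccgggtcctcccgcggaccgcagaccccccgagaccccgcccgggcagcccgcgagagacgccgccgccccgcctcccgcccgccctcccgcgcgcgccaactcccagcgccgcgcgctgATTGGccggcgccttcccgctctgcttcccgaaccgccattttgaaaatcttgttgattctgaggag
Hmgb2: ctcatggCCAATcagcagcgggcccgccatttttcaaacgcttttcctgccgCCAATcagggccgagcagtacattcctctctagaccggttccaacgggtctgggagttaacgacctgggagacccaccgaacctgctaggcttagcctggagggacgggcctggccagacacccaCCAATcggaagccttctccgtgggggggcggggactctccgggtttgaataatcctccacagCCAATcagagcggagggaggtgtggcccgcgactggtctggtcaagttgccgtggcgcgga
Hmgb3: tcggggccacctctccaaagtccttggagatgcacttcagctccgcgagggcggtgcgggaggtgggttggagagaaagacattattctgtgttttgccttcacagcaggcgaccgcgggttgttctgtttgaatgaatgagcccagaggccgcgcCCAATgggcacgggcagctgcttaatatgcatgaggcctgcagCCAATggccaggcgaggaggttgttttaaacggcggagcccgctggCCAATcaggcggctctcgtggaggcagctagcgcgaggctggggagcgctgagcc
The window of Dek held 1 CCAAT box, that of Hmgb2 held 4 and that of Hmgb3 held 3. Hmgb1, whose sequences are not shown, held 3 in 1 window and 0 in the other. A promoter was listed for 8 of the 9 genes, with 9 windows in all because Hmgb1 had an additional one. Counted by window, 7 of the 9 held at least 1 CCAAT box, as did 37.4% of all 32851 listed mouse promoters of that length. Hmga2 held none. The GC box GGGCGG, read on both strands, was found in 7 of the 9 windows and in 35.7% of all promoters. These letters describe the windows and do not show binding in E0771 cells.

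**Figure D1:**
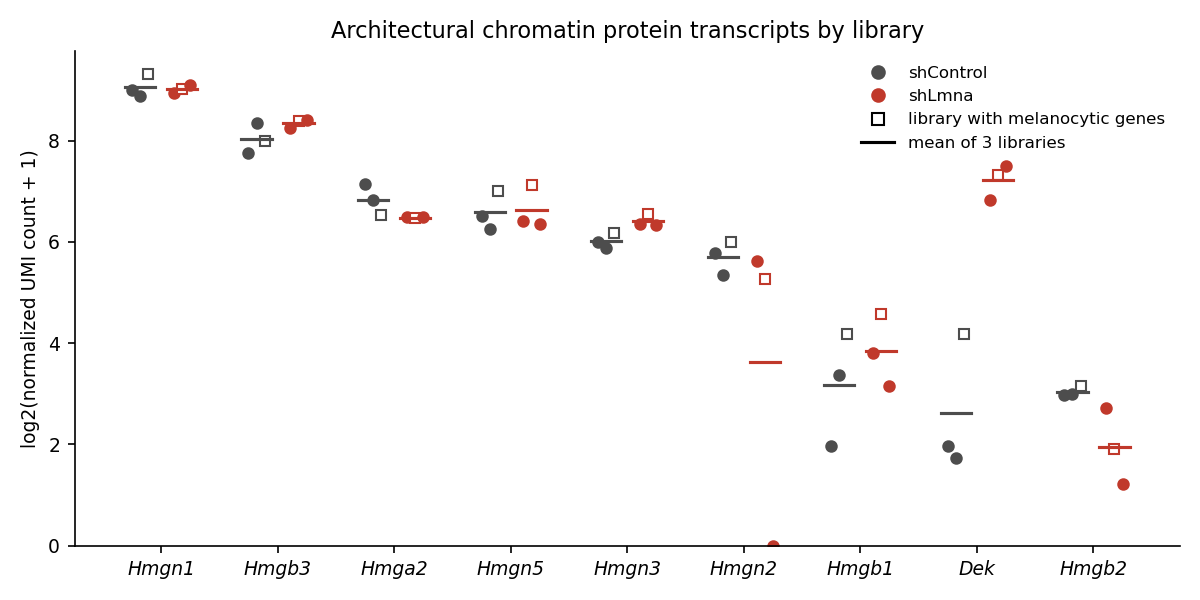
Level of each of the 9 transcripts in each library, as log2 of the normalized UMI count plus 1, ordered by mean normalized count in shControl. Grey is shControl, red is shLmna, open squares are the libraries with melanocytic genes (shControl replicate 3 and shLmna replicate 2) and bars are means of 3 libraries on this scale. Dek is the transcript whose groups lie far apart, and Hmgn2 has 1 shLmna library at 0.

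Reads of Dek and of a neighbor on the other strand cannot be fully told apart, because the sources used here do not state whether strand was used in counting. The last exon of Kdm1b, which encodes a demethylase of histone H3 lysine 4, overlaps the counted end of Dek by 598 bases. Kdm1b held 1, 2 and 6 UMIs in the shControl libraries and 18, 21 and 17 in the shLmna libraries. Its groups did not overlap either, and its normalized mean rose from 3.48 ± 3.85 to 19.5 ± 2.86 (SD, n = 3 each), a log2 fold change of 2.64 ± 0.53 (SE; edgeR adjusted p = 0.00458). Without both libraries that held melanocytic genes it was 3.78 ± 0.64 (SE; edgeR adjusted p = 0.000289). There were 3, 1.5 and 2.17 Dek UMIs per Kdm1b UMI in the shControl libraries and 6.72, 8.29 and 8 in the shLmna libraries. Dek thus had the larger UMI count in every library, and the ratio was higher in each shLmna library than in each shControl library.

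**Figure D2:**
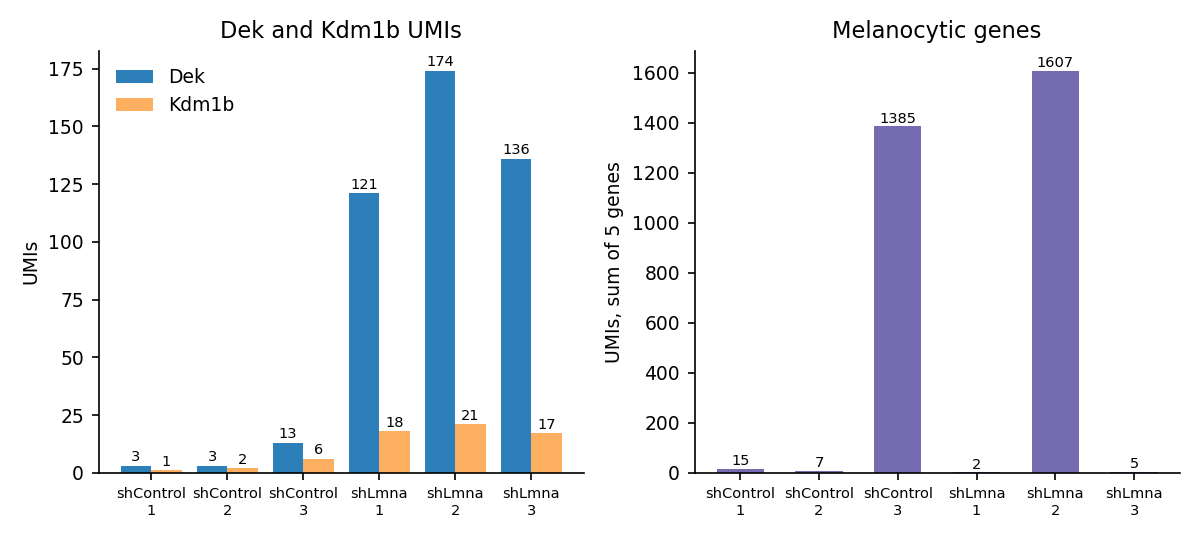
UMIs of Dek and of the overlapping gene Kdm1b (left) and UMIs summed over 5 melanocytic genes (right) in each of the 6 libraries, with the count above each bar. Dek lies between 3 and 13 UMIs in shControl and between 121 and 174 in shLmna, while the melanocytic sum exceeds 1000 in 1 library of each group.

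Genes with a low GC content at the 3′ end deviated by different amounts in different libraries, and the cause was not tested. The counted 3′ end of Dek had 33.9% G and C, which placed it at percentile 3.44 among the tested genes. Genes in the lowest quintile of GC content (at most 40.2%, 1816 genes) deviated from their mean by a median log2 of -0.24, -0.09 and 0.10 in the shControl libraries and -0.03, 0.22 and 0.15 in the shLmna libraries. Of these 1816 genes, 10.4% were called higher in shLmna, against 3.97% of all 8969 tested genes. After each library was corrected for GC content the log2 fold change of Dek was 4.01 and that of Kdm1b was 2.09. All 9 genes lay below the median GC content of 47.1%, and 5 of them lay in the lowest quintile.

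The call of a differentially expressed gene followed the criteria of the study, here applied to edgeR: an adjusted p under 0.05, a change of more than 1 on the log2 scale in either direction, and more than 5 normalized counts on average. Across all genes 5.71% were called (512 of 8969), 3.97% higher and 1.74% lower in shLmna. Of the 9 genes, 8 passed the filter on low counts, and Dek was the 1 that met these criteria. Without both libraries that held melanocytic genes 6.16% of 8996 tested genes were called, and Dek was again the 1 member. Since the group was chosen with this contrast known, nothing is read from that count. The groups did not overlap for 3 of the 8 (Dek, Hmgn3 and Hmga2), where 32.5% of all tested genes had groups that did not overlap. The median log2 fold change of the 8 was 0.19, with 5 values above 0 and 3 below, against 0.003 over all tested genes.

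Among the HMGB genes, Hmgb3 was the abundant one. Hmgb3 (chrX:71555918-71560676, plus strand), known from hematopoietic stem cells and often raised in tumors, held 221, 417 and 191 UMIs in shControl and 326, 364 and 256 in shLmna. The normalized mean was 264 ± 55.3 in shControl and 325 ± 18.5 in shLmna (SD, n = 3 each), a log2 fold change of 0.29 ± 0.16 (SE). The groups overlapped, because shControl replicate 2 at 324 normalized counts lay above shLmna replicate 1 at 304. Without both libraries that held melanocytic genes the log2 fold change was 0.25.

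Hmgb1 and Hmgb2 were close to the limit of detection. Hmgb1 (chr5:149046702-149184489, minus strand), the ubiquitous family member, held 3, 12 and 13 UMIs in shControl and 14, 25 and 6 in shLmna, and its groups overlapped. Its log2 fold change of 0.70 ± 0.51 (SE) was 0.35 after GC correction and ranged from 0.22 to 1.21 when each library was left out in turn. In the annotation 6 of the 7 ends of coding Hmgb1 transcripts lie outside the window taken here as its counted end. Elsewhere 117 annotated genes, 113 of them pseudogenes, share at least 200 bases with its transcript at 90% identity or more. By that rule 0 copies matched the counted end itself. The part of these ends and copies in the low count was not tested. Hmgb2 (chr8:57511907-57515999, plus strand), which is normally abundant in dividing cells, held 7, 9 and 6 UMIs in shControl and 6, 3 and 1 in shLmna and did not pass the filter on low counts. Each shControl library had more normalized Hmgb2 counts (6.82 to 7.91) than each shLmna library (1.32 to 5.59). In a fit without the filter its log2 fold change was -1.07 ± 0.59 (SE), from counts of at most 9 UMIs.

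Hmga2 (chr10:120361275-120476469, minus strand) was present in every library. It held 144, 145 and 69 UMIs in shControl and 95, 96 and 67 in shLmna. In normalized counts these were 140.3, 113 and 90.9 against 88.4, 87.6 and 88.5, so that every shLmna library was just below the lowest control. The mean was 115 ± 24.7 in shControl and 88.2 ± 0.534 in shLmna (SD, n = 3 each), and the log2 fold change was -0.39 ± 0.19 (SE). It was -0.54 after GC correction and -0.51 without both libraries that held melanocytic genes. The gap between the groups, from 88.5 to 90.9, was smaller than the spread among the control libraries.

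The let-7 sites of Hmga2 are shown because repression by let-7 is the known control of this transcript. The mature let-7a-5p, from RefSeq with its seed (bases 2 to 8) in capitals, shares that seed with the other listed let-7 family members, 11 mature mouse microRNAs in all. The 3′ UTR of Hmga2 (3014 bases) held 4 matches to the seed, in capitals below, of which the last lies in the counted end of the transcript. They lie on the minus strand at chr10:120364224-120364245 (site 1), chr10:120362987-120363008 (site 2), chr10:120362549-120362570 (site 3) and chr10:120361691-120361712 (site 4), in GRCm38.
let-7a-5p: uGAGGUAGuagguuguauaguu
Hmga2 site 1: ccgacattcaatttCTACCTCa
Hmga2 site 2: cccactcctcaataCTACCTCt
Hmga2 site 3: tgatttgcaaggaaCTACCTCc
Hmga2 site 4: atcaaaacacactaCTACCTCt
MicroRNAs were not measured in these libraries. Lin28b, which blocks let-7 maturation, held 21, 29 and 20 UMIs in shControl and 13, 15 and 15 in shLmna, a log2 fold change of -0.62 ± 0.32 (SE) that missed the threshold (edgeR adjusted p = 0.215).

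A pseudogene of Hmga2 was also measured. Hmga2-ps1, a transcribed pseudogene on chromosome 1, held 67, 76 and 64 UMIs in shControl and 38, 47 and 25 in shLmna, and the groups did not overlap. Its normalized mean fell from 69.6 ± 13.2 to 37.1 ± 5.14 (SD, n = 3 each), a log2 fold change of -0.88 ± 0.23 (SE; edgeR adjusted p = 0.0185), which is below the size required of a call. Without both libraries that held melanocytic genes it was -0.85 (edgeR adjusted p = 0.0394). A GENCODE pseudogene at that place (chr1:176835724-176836062) matched 295 bases of the Hmga2 transcript at 94.58% identity, outside the counted end of Hmga2. The counted end shares 320 bases at 93.12% identity, on the opposite strand, with Cox16, an assembly factor of cytochrome oxidase whose 4 to 22 UMIs were too few to be tested.

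The HMGN genes included the most abundant transcript of the group. Hmgn1 (chr16:96120618-96127729, minus strand) had the highest level of the 9, with 522, 605 and 480 UMIs in shControl and 525, 567 and 412 in shLmna. Its log2 fold change was -0.05 ± 0.15 (SE), between -0.14 and 0.07 when each library was left out in turn. Hmgn3 (chr9:83109948-83146685, minus strand), which was described as a cofactor of the thyroid hormone receptor, held 65, 74 and 54 UMIs in shControl and 87, 102 and 60 in shLmna. Its normalized counts ran from 57.5 to 71.2 in shControl and from 79.3 to 93 in shLmna, so the groups did not overlap, with a log2 fold change of 0.41 ± 0.19 (SE) that was 0.40 after GC correction and 0.41 without both libraries that held melanocytic genes.

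For Hmgn5 and Hmgn2 the spread between libraries was as large as the difference between groups or larger. Hmgn5 (chrX:109004534-109013404, minus strand), an HMGN protein with a long acidic tail, held 92, 97 and 96 UMIs in shControl and 91, 151 and 61 in shLmna. Its highest normalized values, 127 in shControl and 138 in shLmna, both lay in the library of the group that held melanocytic genes. The log2 fold change was 0.09 ± 0.24 (SE) and turned to -0.24 after GC correction. Hmgn2 (chr4:133964738-133968650, minus strand) held 55, 51 and 48 UMIs in shControl and 52, 41 and 0 in shLmna. The 0 in shLmna replicate 3 allows up to 3 UMIs of 1846208, or 3.96 normalized counts, against 37.4 or more in each of the other 5 libraries. Hmgn2 was the only 1 of 10520 genes at 0 in exactly 1 library with at least 40 UMIs in each of the others, a limit set after its values were seen. The log2 fold change of -0.75 ± 0.51 (SE) was -0.26 without that library. Copies cover 99.7% of the counted end of Hmgn2, at up to 100% identity, and how reads that map to several places were handled is not given in the sources used here.

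**Figure D3:**
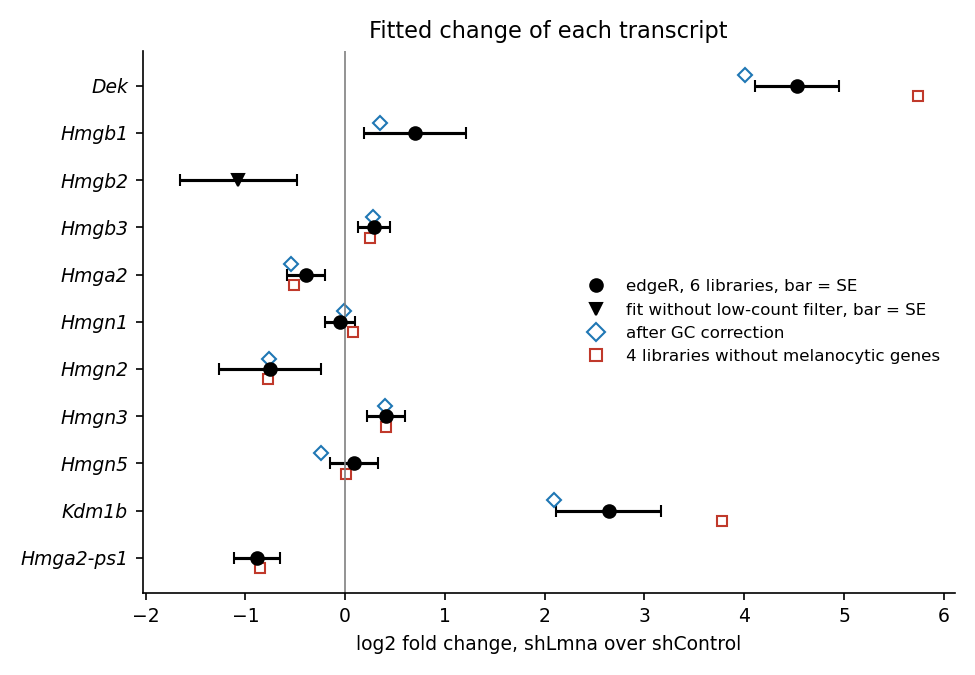
Log2 fold change, shLmna over shControl, of the 9 transcripts and of Kdm1b and Hmga2-ps1. Black points are the edgeR fit of 6 libraries with the SE as a bar, the black triangle is a fit without the low-count filter for Hmgb2, blue diamonds follow GC correction and red squares leave out both libraries with melanocytic genes. Dek lies at 4.53, and the other 8 members lie between -1.07 and 0.70.

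Levels of different genes were set side by side because counting used a window of fixed length at the 3′ end. Capture may still differ between genes, so the order describes counts in that window. Ends of coding transcripts lie outside it for Dek (2 of 3), Hmgb1 (6 of 7), Hmgb2, Hmgb3 and Hmgn1 (1 of 2 each). Copies cover 99.7% of the counted end of Hmgn2 and 78.7% of that of Hmgb3. In normalized counts of shControl the order was Hmgn1, Hmgb3, Hmga2, Hmgn5, Hmgn3, Hmgn2, Hmgb1, Dek and Hmgb2, where the ranges of Hmga2 and Hmgn5, of Hmgn3 and Hmgn2, of Hmgb1 and Dek and of Dek and Hmgb2 overlapped. In shLmna Dek was at rank 3, after Hmgn1 and Hmgb3, and its range overlapped that of Hmgn5 behind it. By mean level over all libraries Hmgn1 stood at percentile 90.7 of all genes and Hmgb3 at 82.6, whereas Hmgb1 stood at 19 and Hmgb2 at 7.98. The 9 genes together made up 0.0417, 0.0436 and 0.0511% of the UMIs in the shControl libraries and 0.0487, 0.0582 and 0.0541% in the shLmna libraries. Within that sum Dek took 0.27, 0.212 and 1.34% in shControl and 9.19, 11.4 and 13.6% in shLmna. Hmgn1 took between 42.8 and 49.5% in shControl and between 37.2 and 41.2% in shLmna.

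The genes whose levels followed Dek most closely over the 6 libraries were Armc1, Ikbip, Ddx3x, Parva and Clcn3, with a Pearson r of log2 CPM between 0.9953 and 0.9974 among 7732 genes with a mean of at least 20 UMIs. The libraries fall into separate groups for these genes, so r mainly restates the difference between groups, and 147 genes had an r above 0.95. Ddx3x, an RNA helicase, had 4, 4 and 10 UMIs in shControl and 83, 83 and 62 in shLmna. Clcn3, a chloride-proton exchanger of endosomes, had 6, 5 and 12 UMIs in shControl and 64, 94 and 52 in shLmna. In Ddx3x and Clcn3, as in Dek, the highest shControl count lay in the library with melanocytic genes. The 3′ ends of Ddx3x and Clcn3 had 33.7% and 36.4% G and C, which puts both in the lowest quintile. Armc1 had 1, 2 and 7 UMIs in shControl and 53, 80 and 51 in shLmna, so its highest shControl count lay in that library too. Its 3′ end had 39.5% G and C, also in the lowest quintile. Ikbip and Parva differed far less, with ratios of mean normalized counts of 1.87 and 1.45. Their 3′ ends had 42.1% and 42.9% G and C, above the limit of that quintile. Their highest shControl UMI count lay in replicate 2, the deepest library. In normalized counts of shControl, replicate 3 with its melanocytic genes was highest for both. The values of replicates 1, 2 and 3 were 85.7, 83.1 and 116 for Ikbip and 97.4, 94.8 and 111 for Parva.

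Of 35 listed genes of other HMG-box proteins, 21 were matched and 16 tested, and 1 rose and 1 fell at an adjusted p below 0.05, where 7.96% of all tested genes rose and 5.78% fell by that rule. Hmgxb4 rose from 11.6 ± 3.43 to 28.1 ± 11.5 normalized counts (SD, n = 3 each; log2 fold change 1.27 ± 0.39 SE, edgeR adjusted p = 0.0418), with an adjusted p of 0.0856 by edgeR without both libraries that held melanocytic genes. Tcf7l1, a repressor of Wnt targets, fell from 174 ± 5.08 to 115 ± 11 normalized counts (log2 fold change -0.60 ± 0.16 SE, edgeR adjusted p = 0.0208), with an adjusted p of 0.0753 by edgeR without those libraries. DESeq2 and limma-voom did not call Hmgxb4's rise. The median log2 fold change of the 16 was 0.30. Ssrp1, the HMG-box subunit of the FACT histone chaperone, was at -0.50 and Tfam, which packs mitochondrial DNA, at 0.18, and neither passed the test.

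Among other AT-hook proteins, 10 of 11 were matched and 9 tested. At an adjusted p below 0.05 in edgeR 1 rose and 0 fell, where 7.96% of all tested genes rose and 5.78% fell. The median log2 fold change was 0.21. At an unadjusted p below 0.05, 2 were higher and 1 was lower. For unadjusted p no share over all tested genes is given, here or below. After adjustment DESeq2 gave 0 in either direction, and limma-voom gave 2 that rose and 0 that fell. Psip1, a chromatin reader that tethers lentiviral integrase, was at 0.61 ± 0.20 (SE; edgeR adjusted p = 0.0529), and at 0.14 after GC correction.

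Histone handling by partners of DEK and HMG proteins was covered by a further list. Of its 18 genes of the SET complex, histone chaperones and casein kinase CK2, which phosphorylates DEK, 16 were matched and tested, 1 rose and 1 fell at an adjusted p below 0.05, beside 7.96% and 5.78% of all tested genes, and the median was -0.16. With 1 library left out the number past the threshold was between 1 and 3. Npm1, the nucleolar histone chaperone, fell from 2242 ± 353 to 1380 ± 208 normalized counts (SD, n = 3 each; log2 fold change -0.70 ± 0.16 SE, edgeR adjusted p = 0.00914). Anp32a, an acidic subunit of the SET complex, rose from 127 ± 6.41 to 187 ± 10.9 normalized counts (log2 fold change 0.56 ± 0.15 SE, edgeR adjusted p = 0.025). Anp32e, a chaperone that removes histone H2A.Z, was at 0.56 ± 0.22 (SE; edgeR adjusted p = 0.1). Npm1 and Anp32a remained past the threshold without both libraries that held melanocytic genes, with adjusted p of 0.0271 and 0.0493 by edgeR. Set itself was at 0.01.

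Receptors and modifiers of extracellular Hmgb1 gave no call. Of 14 listed, 9 were matched and 7 tested. In edgeR 0 passed an adjusted p of 0.05, where 7.96% of all tested genes rose and 5.78% fell. At an unadjusted p below 0.05, 2 were higher and 1 was lower, and DESeq2 and limma-voom each gave 1 that rose after adjustment. Sirt1, a deacetylase of Hmgb1 among other substrates, had 4, 21 and 13 UMIs in shControl and 27, 35 and 20 in shLmna, a log2 fold change of 1.17 ± 0.40 (SE; edgeR adjusted p = 0.0644) that was 0.52 after GC correction. Tlr2, a receptor of released Hmgb1, was at 0.83 ± 0.41 (SE; edgeR adjusted p = 0.203).

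In the Hmga2 and let-7 axis 10 of 12 genes were matched and tested. Of these, 2 rose and 0 fell at an adjusted p below 0.05 in edgeR, in DESeq2 and in limma-voom. By that rule in edgeR 7.96% of all tested genes rose and 5.78% fell. At an unadjusted p below 0.05, 2 were higher and 0 lower. Ccna2, the S and G2 phase cyclin described as a target of Hmga2, rose from 366 ± 73.3 to 643 ± 31.3 normalized counts (SD, n = 3 each; log2 fold change 0.82 ± 0.16 SE, edgeR adjusted p = 0.00323). Twist1, a driver of the mesenchymal state that Hmga2 can induce, rose from 492 ± 56.3 to 751 ± 114 normalized counts (log2 fold change 0.61 ± 0.15 SE, edgeR adjusted p = 0.0163). Snai1 and Snai2, of the same list, were at 0.15 and -0.29, and neither passed the test. Hmga2 itself, given without a test, was at -0.39. A link between Hmga2 and these genes was not tested. Among proliferation genes, with which Dek and Hmgb2 usually vary, 28 of 29 were matched and 27 tested, and the median was 0.13. Ccna2 was the 1 that rose and 0 fell in edgeR, beside 7.96% and 5.78% of all tested genes. DESeq2 and limma-voom gave the same counts, and 2 were higher and 4 lower at an unadjusted p below 0.05. Tyms, thymidylate synthase, was at 0.55 ± 0.41 (SE; edgeR adjusted p = 0.409). Mki67, the standard marker of cycling cells, was at 0.01. Of the 27 tested, 17 had values above 0 and 10 below, from -0.41 for Mcm6 to 0.82 for Ccna2.

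**Figure D4:**
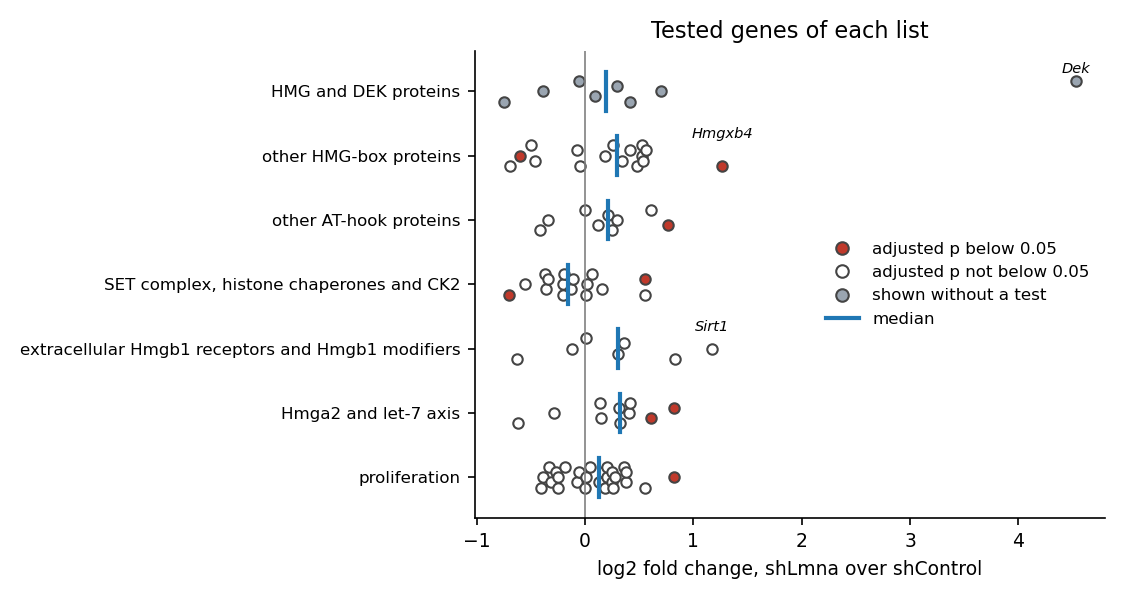
Log2 fold change, shLmna over shControl, of every tested gene in the group and in 6 lists of related genes. Red points passed an adjusted p of 0.05 in edgeR, white points did not, grey points are the group itself, shown without a test, and blue bars are medians, which lie between -0.16 and 0.32.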

How the data were processed

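RNA of 3 shControl and 3 shLmna E0771 libraries was sequenced by MARS-seq. The authors trimmed reads with Cutadapt, mapped them to mm10 with STAR 2.4.2a and counted UMIs with HTSeq in the last 1000 bases of RefSeq genes and 100 bases downstream, giving the deposited counts, which are not normalized and range from 1846208 to 3242051 per library. The authors also deposited log2 values corrected with ComBat, used here in 1 alternative, and a DESeq2 table of means, fold changes and p-values, which was not used.

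The main test used edgeR 4.0.16 under R 4.3.3 (filterByExpr with a minimum count of 10, TMM, quasi-likelihood test, Benjamini-Hochberg adjustment, no replicate block). Alternatives used DESeq2 1.42.0, limma-voom (limma 3.58.1), other scaling and filters, a loess GC correction (span 0.3), thinned counts and libraries left out. The scripts were tested on simulated data. GC content came from GENCODE M21, matched to 10468 genes, and copies were searched among its transcripts with BLAST+ 2.17.0. Promoters and microRNAs are RefSeq sequences (GRCm38.p6). The floor of 3 UMIs covers counting error only.

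Genes were named by rule: the members, Lmna, up to 4 called genes of each list or otherwise its 2 largest changes, genes overlapping or copying a member, and the 5 most like Dek. Other names (Set, Ssrp1, Tfam, Mki67, Mcm6, Anp32a, Tcf7l1, Twist1, Snai1, Snai2) were added after their values were seen. Members and lists were chosen with earlier results of these data known. No replicate pair matched within counting noise (chi-square over its degrees of freedom from 5.112 to 8.278). Some results are not reported here.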

Additional observations from a re-analysis of the deposited data

How the results depend on the processing

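The count of members called was 1 in every alternative that gives calls, and nothing is read from it, since the members were chosen with this contrast known. The log2 fold change of Dek was 4.53, 5.77 without shControl replicate 3, 5.74 without both libraries that held melanocytic genes (chosen after seeing the data) and 1.52 on the authors' ComBat log2 values, which have a compressed scale. No called value changed sign. The number of genes called, 512, was 158 at a mean count of at least 50, 422 with DESeq2 and 346 to 654 with 1 library left out. The cause of the changes below was not tested.

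Genes at an adjusted p below 0.05 depended on the setting in the short lists. Other HMG-box proteins gave 2, but 1 with DESeq2, at a mean count of at least 50 and with thinned counts, 4 with GC correction and replicate block, and 0 to 5 with 1 library left out. AT-hook proteins gave 1, but 0 with DESeq2, 2 with limma-voom, 2 with GC correction, and 0 to 1 with 1 library left out. Hmgb1 receptors and modifiers gave 0, but 1 with DESeq2, limma-voom, no filter or GC correction, 2 with thinned counts, and 0 to 2 with 1 library left out. Proliferation gave 1, but 3 with GC correction with or without the replicate block, 2 without both libraries that held melanocytic genes, and 1 to 3 with 1 library left out. SET complex and chaperones gave 1 to 3 and the Hmga2 and let-7 axis 1 to 2 with 1 library left out.

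The deviations of same-numbered libraries had correlations of 0.3517, -0.1148 and 0.005194 for replicates 1, 2 and 3. Since replicates 2 and 3 did not deviate together, the numbers were not taken to pair the samples. With the replicate block 518 genes were called, Dek was at 4.55, and the count was 2 in AT-hook proteins and 1 in Hmgb1 receptors and modifiers. Depth limits Hmgb2, which had at most 9 UMIs in any library.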
